A study of Mus musculus with 15 samples.

Results

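KD6 is 1 of 2 lines derived from 6DT1 mouse mammary carcinoma cells that were made to carry a short hairpin RNA against Smarcd1. Its 3 libraries were compared with 3 libraries of the line with a scrambled hairpin (shScr), so 6 of the 15 RNA-seq libraries of the series enter the main comparison, chosen by their labels alone. The labels give the genotype of KD6 as knockdown and that of shScr as wildtype. KD6, shScr and the second hairpin line, KD4, were transduced with lentivirus and selected in puromycin. They were grown as a monolayer in serum-containing medium without further treatment, and RNA was taken 24 h after seeding at 70% confluence. Each of the 3 replicates of a line was a different passage, seeded on its own day. The sources used here do not say which hairpin sequence KD6 carries, nor whether the line descended from 1 cell or from many. KD4 serves below as the other line with a hairpin against the same gene, and an empty-vector line (EV, 3 libraries, selected in blasticidin) as a further line whose vector encoded no hairpin.

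Smarcd1 encodes a subunit of the BAF (SWI/SNF) complexes, which use ATP to slide or evict nucleosomes. Smarcd1, Smarcd2 and Smarcd3 encode alternative forms of the same subunit, which bridges the complex to transcription factors. A hairpin lowers its target through RNA interference, in which a guide strand loaded into an Argonaute protein directs cleavage or decay of the matching messenger RNA.

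Levels are in CPM, reads scaled to the total of the library, and are given as the mean ± SD over 3 libraries. Read totals are not given in the sources used here, so depth is unknown and counting error cannot be stated. The listed genes summed to between 899805 and 916093 CPM in the 6 libraries, and mitochondrially encoded genes took 4.35% to 5.49% of that sum. Pearson's r across genes, which are not independent of each other, was 0.992 to 0.995 between libraries of 1 line and 0.987 to 0.993 between lines. Of 31 genes of the epithelial state, 8 had values, among them the luminal keratins Krt8 and Krt18, which were found in every library. The members of that list outside the 8 had no values, and nothing is read from that. Of 17 genes of the mesenchymal state 10 had values, among them Vim at 1730 ± 39.8 CPM in shScr and 1894 ± 94.3 CPM in KD6. Changes are log2 differences, KD6 minus shScr, of log2(CPM + 1) with their standard error (SE), from a limma fit. This scale understates the change of genes at a low level. A gene is said to have risen or fallen where its Benjamini-Hochberg adjusted p over all 13669 genes was under 0.05.

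The first question was whether the libraries labelled KD6 held less Smarcd1 than the scrambled-hairpin libraries. Smarcd1 (ENSMUSG00000023018) was at 14.5, 16.5 and 15.04 CPM in shScr and at 13.2, 14.8 and 15.1 CPM in KD6. The groups overlapped, and the mean of KD6 was 93.6% of the mean of shScr. The log2 change was -0.09 ± 0.09 (SE), with a limma adjusted p of 0.71. In KD4 the level was 9.13 ± 0.121 CPM, and the difference of KD6 from KD4 was 0.60 ± 0.08 on the log2 scale (adjusted p = 0.00292, 3-group limma fit). The label knockdown thus goes against the messenger RNA of these 3 libraries: a decrease of Smarcd1 was not detected. In what follows KD6 names the libraries labelled so and makes no statement on the amount of Smarcd1. Whether these libraries are labelled correctly cannot be told from the data used here. The protein was not measured here.

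**Figure D1:**
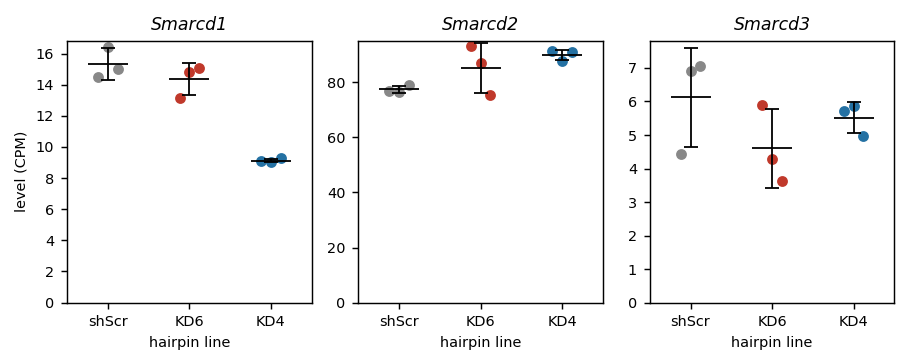
Levels in CPM (vertical axes, starting at 0) of the 3 paralogous genes Smarcd1, Smarcd2 and Smarcd3 in shScr, KD6 and KD4; points are libraries, the long bar is the mean and the capped line 1 SD on each side (n = 3). For Smarcd1 the KD6 libraries lie between 13.2 and 15.1 CPM, within reach of shScr, while KD4 has a mean of 9.13 CPM.

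The paralogs of Smarcd1 did not pass the test either. Smarcd2 was at 77.5 ± 1.34 CPM in shScr and 85.3 ± 8.96 CPM in KD6 (adjusted p = 0.5), and Smarcd3 at 6.13 ± 1.48 and 4.603 ± 1.18 CPM (adjusted p = 0.429). Both were named after their values were seen. Of 30 genes of the BAF complexes, 25 had values, and 0 were called by limma, with 3 at an unadjusted p under 0.05, a mark that 16.1% of all genes reached. Their median log2 change was 0.01, beside a median of 0.00215 over all genes. The lowest p in the list belonged to Brd9, a bromodomain subunit of the non-canonical complex, at 27.6 ± 1.44 CPM in shScr and 32.7 ± 1.18 CPM in KD6 (adjusted p = 0.148). The 3 libraries of each line did not overlap for Brd9, but 22.2% of all genes had libraries that did not overlap. Among 15 genes of the small RNA machinery, 0 were called by limma and 6 had an unadjusted p under 0.05. The lowest p there belonged to Ago2, the Argonaute that cleaves its target, at 389, 344 and 422 CPM in shScr and 219, 298 and 285 CPM in KD6. That is a log2 change of -0.53 ± 0.12 (SE) with an adjusted p of 0.0581. In KD4 Ago2 was at 319.5 ± 72.5 CPM.

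The second question was how far the transcriptome of KD6 differed from that of shScr. Of 13669 genes, 351 were called, which is 2.57% of all genes tested. The risen genes numbered 248 (1.81% of those tested) and the fallen genes 103 (0.754%). Of the 351, 204 changed by more than 1.5-fold on the log2(CPM + 1) scale, 33 rose by more than 2-fold and 12 fell by more than 2-fold. The median absolute log2 change of the called genes was 0.63 and the smallest 0.28. All 351 had libraries that did not overlap between the lines, beside 22.2% of all genes. A call favours such genes, so nothing further is read from that. At an adjusted p under 0.1 the count was 707, and at an unadjusted p under 0.05 it was 2205 (16.1%), of which 1239 were higher and 966 lower in KD6. Called genes had a median level of 15.9 CPM, against 22.6 CPM for all genes. Of them 25 exceeded a mean of 100 CPM and 89 were under a mean of 5 CPM. The count depended on single libraries. It was 155 without shScr replicate 2, 178 without KD6 replicate 2, 203 without shScr replicate 3 and 218 without shScr replicate 1. Of the 351 genes, 132 stayed called without each library in turn, and all 351 kept their sign.

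**Figure D2:**
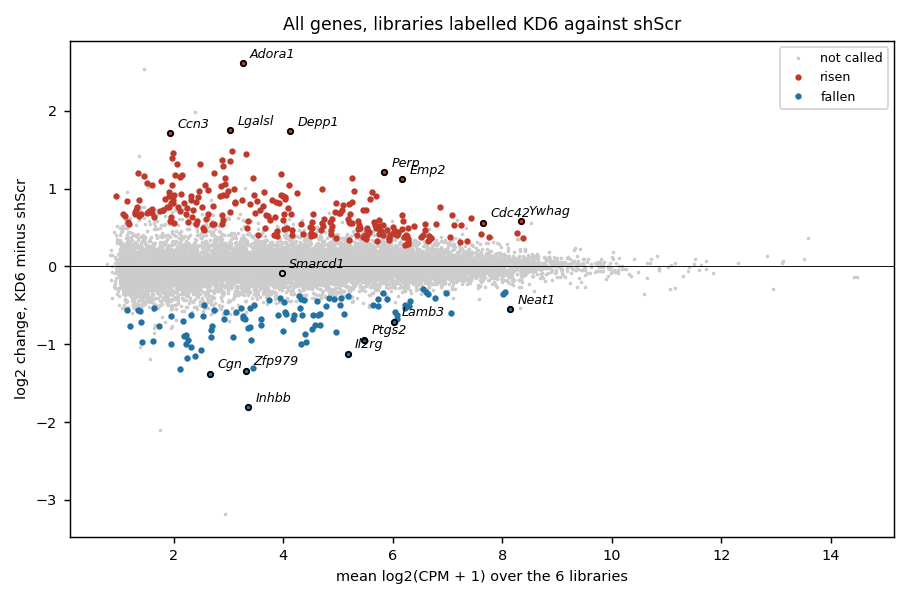
Log2 change of each of 13669 genes, KD6 minus shScr (vertical axis), against its mean log2(CPM + 1) over the 6 libraries (horizontal axis); the 248 risen and 103 fallen genes are coloured and a few are named. The called genes spread over low and middle levels, Smarcd1 sits near 0, and Adora1 and Inhbb lie at the upper and lower ends of the called genes.

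The 15 genes with the largest rise held matrix and surface proteins. They were taken from called genes at a mean log2(CPM + 1) of at least 2 with libraries that did not overlap between the lines. Adora1, an adenosine receptor coupled to inhibitory G proteins, was at 5.70, 2.88 and 1.24 CPM in shScr and at 14.1, 25.7 and 32.2 CPM in KD6. That is 7.33-fold, a log2 change of 2.61 ± 0.38 (SE), adjusted p = 0.00837. The libraries of both lines spread widely for this gene. That the lines did not overlap was a condition of the choice, so nothing is read from it. In KD4 Adora1 was at 2.86 ± 0.554 CPM. Lgalsl, a galectin-like protein, was at 3.52, 3.59 and 3.31 CPM in shScr and at 16.2, 13.95 and 12.1 CPM in KD6 (4.05-fold, log2 change 1.75 ± 0.11, adjusted p = 0.000525). Its level in KD4 was 13.4 ± 6.12 CPM. Depp1, a regulator of autophagy induced by FOXO factors, was at 8.86, 6.44 and 10.9 CPM in shScr and at 23.6, 32.6 and 38.8 CPM in KD6 (3.62-fold, adjusted p = 0.00293).

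The genes of this set with secreted products were Mgp, Fbln1, Mmp3 and Mmp10. Mgp, matrix Gla protein, an inhibitor of calcification, stood at 3.53, 5.32 and 3.51 CPM in shScr and 12.9, 12.5 and 13.8 CPM in KD6 (3.17-fold, log2 change 1.48 ± 0.14, adjusted p = 0.00169). Fbln1, a fibulin of basement membranes and elastic fibres, rose from 1.91 ± 0.311 to 5.43 ± 0.232 CPM (2.84-fold, adjusted p = 0.00184). Mmp3 and Mmp10 encode stromelysins, secreted zinc proteases that cleave matrix proteins. Mmp3 was at 3.58, 3.92 and 4.82 CPM in shScr and at 13.05, 10.9 and 12.3 CPM in KD6, a log2 change of 1.36 ± 0.12 (SE) with an adjusted p of 0.0011. Mmp10 was at 3.98, 3.20 and 4.16 CPM in shScr and at 13.1, 7.76 and 11.7 CPM in KD6, a log2 change of 1.29 ± 0.17 (SE) with an adjusted p of 0.00585. For both genes every KD6 library was above every shScr library, as the choice of this set required. Their sequences are alike, so reads could be shared between them, and their separate values are uncertain to that extent. In KD4, Mmp10 was at 9.66 ± 2.72 CPM and Mmp3 at 4.38 ± 1.34 CPM.

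The promoters of this pair are shown because the 2 genes are next to each other among the listed genes of their chromosome and rose together. The windows are from RefSeq (GRCm38.p6), from 250 bases before to 50 after the annotated start, both on the plus strand. Capitals mark TGAGTCA, the motif bound by AP-1 factors (searched as TGAGTCA and TGACTCA, each on both strands), and TATAAA, the TATA box motif (both strands).
Mmp3 (chr9:7445572-7445871): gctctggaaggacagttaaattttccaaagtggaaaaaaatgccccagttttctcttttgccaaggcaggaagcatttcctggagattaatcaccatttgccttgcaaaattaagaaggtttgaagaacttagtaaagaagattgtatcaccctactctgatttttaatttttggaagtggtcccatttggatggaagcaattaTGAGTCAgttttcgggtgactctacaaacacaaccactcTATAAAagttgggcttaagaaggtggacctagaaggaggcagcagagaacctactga
Mmp10 (chr9:7502092-7502391): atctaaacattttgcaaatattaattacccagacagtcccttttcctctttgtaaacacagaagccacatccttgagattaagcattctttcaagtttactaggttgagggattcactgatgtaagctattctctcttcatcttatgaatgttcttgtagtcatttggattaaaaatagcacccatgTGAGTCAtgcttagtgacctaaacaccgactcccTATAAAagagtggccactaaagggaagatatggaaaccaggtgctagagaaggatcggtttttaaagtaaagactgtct
Counting the annotated start as 0, TGAGTCA began at -46 in the Mmp3 window and at -63 in the Mmp10 window, and TATAAA at -7 and -29. An AP-1 motif was in 5.2% of the 32851 RefSeq promoter windows and a TATA box motif in 13.6%. Of the 30 genes with the largest rise or fall, 22 had a window, and Mmp3, Mmp10 and the fallen gene Sbsn held an AP-1 motif. Over all called genes with a symbol and a window, it was in 13 of 185 risen genes (7.03%) and 2 of 72 fallen genes (2.78%), beside 398 of 8587 listed genes (4.63%). A match describes letters in the window and not the binding of a factor.

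The rest of the 15 risen genes were of mixed function. Perp, a membrane protein of desmosomes, was at 39.4, 38.5 and 32.8 CPM in shScr and at 93.1, 84.9 and 82.1 CPM in KD6 (2.35-fold, log2 change 1.21 ± 0.09, adjusted p = 0.000633). It was at 102 ± 7.40 CPM in KD4. Epb41l4b, a FERM-domain protein under the plasma membrane, rose from 1.69 ± 0.628 to 5.55 ± 0.454 CPM. Ephb2, a receptor tyrosine kinase for ephrins, rose from 3.44 ± 0.771 to 9.10 ± 0.847 CPM. The scaffold gene Mpp3 rose from 2.02 ± 0.701 to 5.73 ± 0.301 CPM. Glycan-related members were Rfng, a fringe enzyme that adds a sugar to Notch receptors, B4galt6, which makes lactosylceramide, and Lgals7, a galectin of stratified epithelia. Rfng was at 3.57, 6.14 and 5.79 CPM in shScr and at 17.1, 15.6 and 13.99 CPM in KD6 (log2 change 1.45 ± 0.17, adjusted p = 0.00292). B4galt6 rose from 2.56 ± 0.379 to 7.95 ± 1.66 CPM and Lgals7 from 3.63 ± 0.524 to 11.1 ± 2.27 CPM. The zinc finger gene Zfp704 rose from 9.36 ± 0.832 to 22.7 ± 2.26 CPM. Adjusted p of the 6 of these genes given without one was between 0.0011 and 0.00765. None of the 15 risen genes lost its call when any 1 library was left out.

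**Figure D3:**
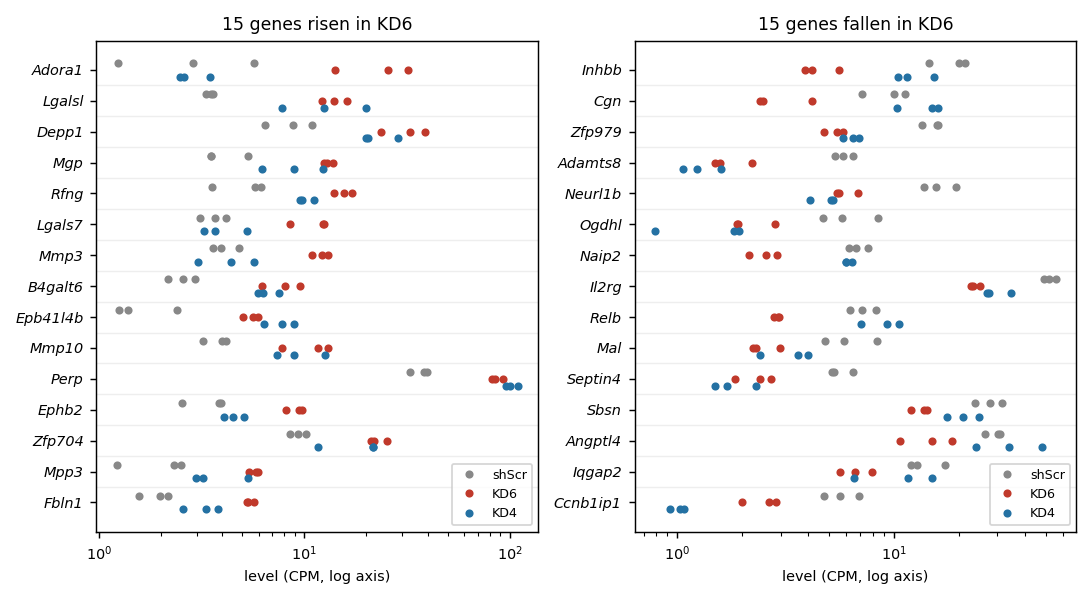
Level in CPM (horizontal log axis) of the 15 risen and the 15 fallen genes with the largest log2 change in KD6; each point is 1 library of shScr, KD6 or KD4. KD6 and shScr points are apart for all 30 genes, which was a condition of their choice. The KD4 points lie with KD6 for some genes, such as Perp and Il2rg, and with shScr for others, such as Adora1 and Naip2.

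The 15 genes with the largest fall began with Inhbb, the beta B subunit of inhibins and activins. It was at 14.4, 20.01 and 21.2 CPM in shScr and at 3.90, 4.17 and 5.55 CPM in KD6, 24.5% of the shScr mean (log2 change -1.81 ± 0.16, adjusted p = 0.0011). In KD4 it was at 12.4 ± 2.5 CPM. Cgn encodes cingulin, a protein of the cytoplasmic face of tight junctions, and was at 11.3, 9.95 and 7.15 CPM in shScr and at 4.20, 2.49 and 2.40 CPM in KD6 (32.0% of shScr, adjusted p = 0.00754). Il2rg, the common gamma chain of several interleukin receptors, was at 56.0, 51.9 and 49.4 CPM in shScr and at 24.9, 23.1 and 22.6 CPM in KD6, a log2 change of -1.12 ± 0.08 (SE) with an adjusted p of 0.000574. Relb, a subunit of non-canonical NF-kB, was at 6.27, 7.10 and 8.27 CPM in shScr and at 2.93, 2.81 and 2.96 CPM in KD6 (adjusted p = 0.00251). Every KD6 library was below every shScr library for these 4 genes, as the choice of this set required.

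Other fallen genes of this set were Neurl1b, a ubiquitin ligase for Notch ligands (16.2 ± 2.84 to 5.95 ± 0.730 CPM), the secreted metalloprotease gene Adamts8 (5.89 ± 0.563 to 1.77 ± 0.398 CPM) and Angptl4, an inhibitor of lipoprotein lipase (29.1 ± 2.44 to 14.7 ± 3.87 CPM). Ogdhl, a paralog of a subunit of the 2-oxoglutarate dehydrogenase, fell from 6.29 ± 1.91 to 2.20 ± 0.529 CPM. Naip2, an inflammasome sensor, fell from 6.82 ± 0.680 to 2.54 ± 0.374 CPM, and the zinc finger gene Zfp979 from 15.04 ± 1.34 to 5.34 ± 0.549 CPM. Both belong to families with near-identical copies, so their counts may be split among them. Mal, a membrane trafficking protein, fell from 6.33 ± 1.80 to 2.51 ± 0.418 CPM, Septin4 from 5.64 ± 0.701 to 2.32 ± 0.433 CPM and Iqgap2, a scaffold of the actin cortex, from 14.01 ± 2.84 to 6.72 ± 1.14 CPM. Sbsn, suprabasin, an epidermal secreted protein, fell from 27.6 ± 3.93 to 13.3 ± 1.17 CPM and Ccnb1ip1 from 5.76 ± 1.08 to 2.497 ± 0.453 CPM. Adjusted p of these 11 genes was between 0.000855 and 0.0158. The call of Mal ended without shScr replicate 2 (adjusted p = 0.0547) or KD6 replicate 2 (0.055), and that of Angptl4 without shScr replicate 1 (0.0602) or shScr replicate 3 (0.0769). In the 3-group fit with KD4, Angptl4 was at an adjusted p of 0.0511 and Iqgap2 at 0.0669. The calls of the remaining 13 fallen genes held without each library.

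Ranked by the difference in CPM, other genes came first. CPM are not divided by transcript length, so this order is one of reads and not of molecules. Ywhag, an adaptor that binds phosphorylated proteins, was at 273, 248 and 269.6 CPM in shScr and at 368, 431 and 399 CPM in KD6 (1.51-fold, adjusted p = 0.00571). Cdc42, a small GTPase that organises actin and polarity, was at 157, 174 and 165 CPM in shScr and at 257, 236 and 238 CPM in KD6 (1.48-fold, adjusted p = 0.00431). Podxl, a sialylated surface protein, rose from 266 ± 20.1 to 359 ± 18.9 CPM (adjusted p = 0.0216), Tpm1, tropomyosin, from 292 ± 26.2 to 378 ± 16.4 CPM (0.0467) and Scd1, a fatty acid desaturase with close paralogs, from 139 ± 5.16 to 215 ± 30.1 CPM (0.0111). Neat1, the nuclear RNA that scaffolds paraspeckles, fell from 342 ± 13.8 to 235 ± 35.4 CPM (adjusted p = 0.0276). Chd3, a nucleosome remodeller of the NuRD complex, fell from 292 ± 13.2 to 228 ± 9.05 CPM (0.0256), Cdk18, a kinase, from 165 ± 15.1 to 108 ± 11.5 CPM (0.0118), Tnfrsf26, a TNF receptor family member, from 85.2 ± 8.13 to 52.5 ± 2.29 CPM (0.00373) and Lamb3, a laminin chain of epithelial basement membranes, from 82.8 ± 5.48 to 50.5 ± 7.47 CPM (0.00887). The calls of Ywhag, Cdc42, Cdk18, Tnfrsf26 and Lamb3 held without each library. Those of Podxl (adjusted p = 0.0573 to 0.101) and Chd3 (0.0542 to 0.126) ended without KD6 replicates 2 or 3 or shScr replicate 2, with shScr replicate 1 also for Podxl, and shScr replicate 3 and KD6 replicate 1 also for Chd3. Tpm1 kept its call only without shScr replicate 2 (otherwise 0.098 to 0.147), Neat1 lost it without any 1 shScr library (0.0716 to 0.113) and Scd1 without shScr replicate 2 (0.0529). In the fit with KD4, Scd1 was at 0.0743. Tpm1 was at 0.0518 under median of ratios scaling and at a minimum mean of 5 CPM. Without an intensity trend Tpm1 was at 0.0749, Neat1 at 0.0525 and Chd3 at 0.0546.

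Gene lists by function were then read, 46 in all, with 1236 members that had values and 71 that were called. Each count of calls below is to be read beside the 2.57% called among all genes, each count at an unadjusted p under 0.05 beside the 16.1% of all genes, and each median beside 0.00215. The lists were chosen with earlier results of these data known, so nothing is read from a share above these. Cell contacts and the cell cortex held several called genes. Of 30 measured genes of cell junctions, 4 rose and 1 fell (16.7%), with a median log2 change of 0.07. The risen members were Perp, Dsg2 and Jup, which are desmosomal, and Ocln, occludin of tight junctions, while Cgn was the one that fell. Among the 8 desmosomal genes measured, 3 rose and 0 fell. Ocln was at 2.34, 3.98 and 3.30 CPM in shScr and at 7.96, 7.44 and 7.43 CPM in KD6 (adjusted p = 0.00635). Jup, plakoglobin, rose from 64.7 ± 5.12 to 92.0 ± 8.95 CPM (adjusted p = 0.0225) and Dsg2, desmoglein, from 42.9 ± 6.23 to 65.4 ± 6.19 CPM (0.0232). Jup lost its call without any 1 library but KD6 replicate 3 (adjusted p = 0.0569 to 0.0886), and Dsg2 without shScr replicate 2, shScr replicate 3 or KD6 replicate 2 (0.0859 to 0.0945).

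Of 24 genes of the membrane skeleton, 3 rose and 0 fell (12.5%, median 0.09). Add2 and Add3 encode adducins, which cap actin filaments and join them to spectrin. Add2 was at 4.55, 3.81 and 4.26 CPM in shScr and at 11.9, 10.3 and 9.23 CPM in KD6 (log2 change 1.13 ± 0.12, adjusted p = 0.00202). Add3 was at 1.91, 1.54 and 0.866 CPM in shScr and at 5.63, 5.67 and 5.51 CPM in KD6 (log2 change 1.46 ± 0.16, adjusted p = 0.00255). The third was Epb41l4b. In KD4, Add3 was at 8.98 ± 0.428 CPM and Add2 at 5.51 ± 0.624 CPM. Of 44 genes of actin and focal adhesion, 3 rose and 0 fell (6.82%, median 0.04). They were Synpo, an actin-bundling protein (2.74 ± 0.378 to 5.73 ± 0.651 CPM, adjusted p = 0.00754), Csrp1, a LIM protein (108 ± 16.6 to 169 ± 5.34 CPM, 0.0107), and Tpm1. Csrp1 lost its call without shScr replicate 3 (0.0512). Of 20 laminins and integrins, Lamb3 fell and no other was called (median 0.00 over the list, -0.05 for the 8 laminins).

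Of 36 extracellular matrix genes, 6 rose and 2 fell (22.2%, median 0.05). Of the 19 matricellular proteins and glycoproteins 6 rose and 1 fell, with 9 at an unadjusted p under 0.05 and a median of 0.13. Of the 8 collagens 0 were called, with 3 at an unadjusted p under 0.05 and a median of 0.14. Ccn3, a matricellular protein, was at 1.12, 1.06 and 1.21 CPM in shScr and at 7.06, 4.68 and 6.35 CPM in KD6 (5.33-fold, log2 change 1.71 ± 0.14, adjusted p = 0.000944). Its relative Ccn4 went the other way, from 20.04, 22.3 and 22.8 CPM in shScr to 15.5, 12.7 and 13.4 CPM in KD6 (adjusted p = 0.0118). Mgp, Fbln1, Tnc (0.940 ± 0.189 to 2.15 ± 0.149 CPM, adjusted p = 0.0149), Matn2 (2.31 ± 0.0207 to 3.89 ± 0.497 CPM, 0.0332) and Tgfbi (0.747 ± 0.212 to 1.73 ± 0.208 CPM, 0.0337) were the other risen members. Genes were listed at a geometric mean of at least 1 CPM over the lines, and Tnc and Tgfbi were under it in shScr. They had values only through KD6 and KD4, so nothing is read from their part in the count. P4ha2, a collagen prolyl hydroxylase, fell from 22.9 ± 0.895 to 15.7 ± 2.35 CPM (0.0407). Ccn4 lost its call without shScr replicate 2, shScr replicate 3 or KD6 replicate 2 (0.0543 to 0.0638) and Tnc without shScr replicate 1, shScr replicate 2 or KD6 replicate 2 (0.0588 to 0.0737). For Matn2 any 1 library but KD6 replicate 2 ended the call (0.074 to 0.121), for Tgfbi any but shScr replicate 1 (0.052 to 0.126) and for P4ha2 any but KD6 replicate 3 (0.0659 to 0.129). Under quantile normalization P4ha2 was at 0.0575, and with KD4 in the fit Matn2 was at 0.051.

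Of 34 matrix proteases and their inhibitors, 5 rose and 0 fell (14.7%, median 0.09). Beside Mmp3 and Mmp10 these were Ctsh, a cathepsin (5.12 ± 0.384 to 8.27 ± 0.304 CPM, adjusted p = 0.0121), Plat, the tissue plasminogen activator (40.5 ± 4.59 to 60.9 ± 8.79 CPM, 0.0402), and Serpine2, an inhibitor of serine proteases including plasminogen activators (38.2 ± 3.55 to 50.9 ± 3.55 CPM, 0.0471). Protease and inhibitor of the plasminogen system are thus both among the risen. Ctsh lost its call without shScr replicate 2 (0.0674) or KD6 replicate 2 (0.0546), Plat without any 1 library but KD6 replicate 3 (0.0639 to 0.13) and Serpine2 without any but shScr replicate 3 (0.0534 to 0.163). Under quantile normalization Serpine2 was at 0.0552.

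Among 43 receptor tyrosine kinases and their ligands, 5 rose and 0 fell (11.6%, median 0.06). The receptors were Epha4, Ephb2 and Mertk. Epha4, an Eph receptor, was at 5.99, 6.61 and 6.39 CPM in shScr and at 16.0, 14.2 and 15.3 CPM in KD6 (log2 change 1.14 ± 0.09, adjusted p = 0.000855). Mertk, which clears dying cells, was at 26.3, 24.5 and 30.8 CPM in shScr and at 48.6, 47.2 and 47.7 CPM in KD6 (0.80 ± 0.09, adjusted p = 0.0029), and at 26.5 ± 1.98 CPM in KD4. The ligands were both of the EGF receptor: Btc, betacellulin, rose from 2.68 ± 0.682 to 5.90 ± 1.08 CPM (adjusted p = 0.02) and Tgfa from 63.7 ± 5.03 to 83.0 ± 2.59 CPM (0.031). Btc lost its call without shScr replicates 2 or 3 or KD6 replicate 1 (0.0602 to 0.0856) and Tgfa without any 1 library but shScr replicate 3 (0.0616 to 0.14). Of 38 genes induced by ERK signalling, 0 were called by limma, with 12 at an unadjusted p under 0.05, and their median log2 change was 0.03. The nearest were Fosl2 (44.4 ± 1.89 in shScr and 32.5 ± 4.56 CPM in KD6, adjusted p = 0.0577) and Dusp6 (75.9 ± 2.44 and 92.7 ± 5.32 CPM, 0.0674). In the fit with KD4 both were called (0.0481 and 0.0426), and Fosl2 also without KD6 replicate 3 (0.0364).

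Cytokine receptors included more fallen than risen genes, 5 against 1 of 29 (20.7% called), with a median log2 change of -0.03 over the list. Beside Il2rg the fallen members were Il18rap, Fas, Tnfrsf21 and Ifnar1. Il18rap, a chain of the interleukin 18 receptor, was at 13.5, 11.3 and 12.9 CPM in shScr and at 6.64, 6.35 and 7.60 CPM in KD6 (adjusted p = 0.00585). Fas, a death receptor, was at 3.23, 3.19 and 3.58 CPM in shScr and at 1.58, 1.43 and 1.65 CPM in KD6 (0.00635), and it was at 3.54 ± 1.30 CPM in KD4. Tnfrsf21 fell from 31.7 ± 0.265 to 22.04 ± 1.08 CPM (0.0079) and Ifnar1, a chain of the type I interferon receptor, from 62.7 ± 2.68 to 49.1 ± 0.973 CPM (0.0272). Il13ra1 rose from 54.4 ± 2.03 to 73.8 ± 2.21 CPM (0.00922). Ifnar1 lost its call without any 1 library (0.0539 to 0.118), Il13ra1 without shScr replicate 2 (0.0554), and Fas was at 0.0613 in the fit with KD4.

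Of 32 inflammatory genes, 2 fell and 1 rose (9.38%), with a median log2 change of -0.15. Ptgs2, the inducible cyclooxygenase, was at 65.3, 57.5 and 59.8 CPM in shScr and at 32.5, 28.8 and 32.4 CPM in KD6 (51.3% of shScr, log2 change -0.94 ± 0.08, adjusted p = 0.0011). Relb was the other fallen member. Lcn2, an iron-siderophore carrier, rose from 1.75 ± 0.584 to 4.66 ± 0.934 CPM (0.0131), a call that ended without shScr replicate 2 (0.0626) or 3 (0.0648) and in the fit with KD4 (0.108). None of the 15 chemokines and cytokines with values was called, with 6 at an unadjusted p under 0.05 and a median of -0.17. Of 55 interferon-response genes only Ifit2 was called, which rose from 3.89 ± 0.377 to 6.44 ± 0.463 CPM (0.018), and of 15 genes of MHC class I presentation only Psmb8, an immunoproteasome subunit, which fell from 12.8 ± 1.85 to 7.11 ± 1.79 CPM (0.0382). Ifit2 lost its call without shScr replicate 2 or 3 or KD6 replicate 1 or 2 (0.0515 to 0.0865), and Psmb8 without any 1 library but KD6 replicate 1 (0.0657 to 0.137).

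**Figure D4:**
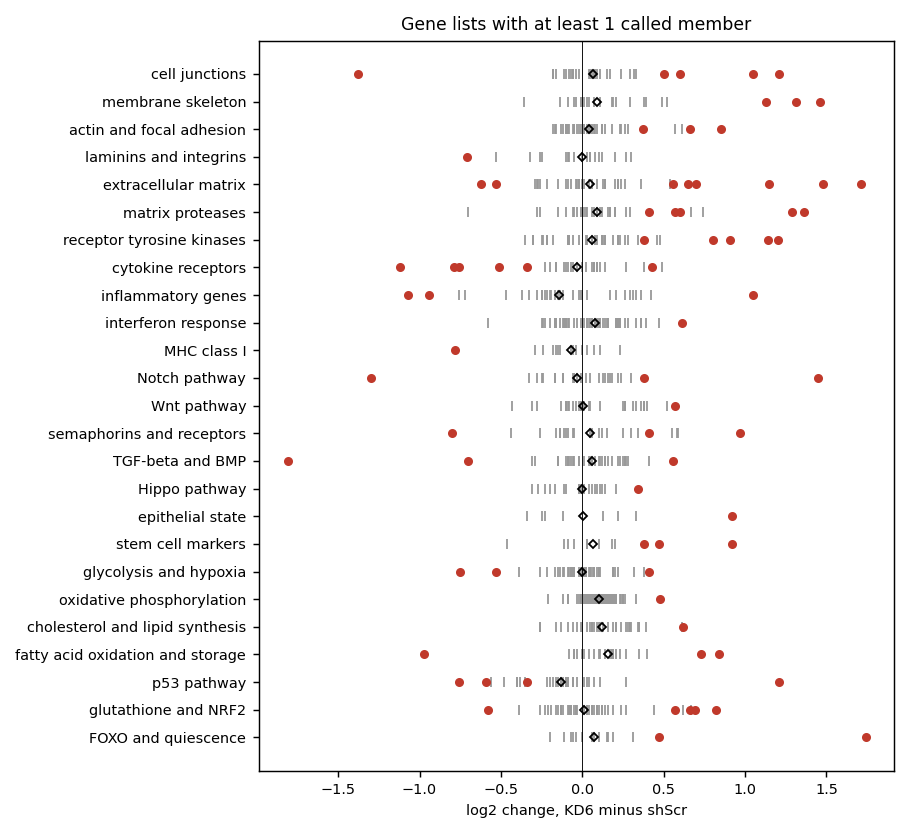
Log2 change, KD6 minus shScr (horizontal axis), of the measured members of the 25 gene lists with at least 1 called gene; filled points are called genes, short bars the other members and open diamonds the median of the list. Called members lie on both sides of 0 in lists such as cell junctions and cytokine receptors, and the medians stay between -0.15 and 0.16.

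Developmental signalling pathways each held 1 to 3 called genes. Of 29 genes of the Notch pathway, Rfng and Mib1 rose and Neurl1b fell (10.3%, median -0.03). Mib1 and Neurl1b are both ubiquitin ligases of Notch ligands, and Mib1 rose from 189 ± 7.30 to 246 ± 13.6 CPM (adjusted p = 0.0232). None of the 7 ligands and receptors with values was called, with 2 at an unadjusted p under 0.05 and a median of 0.05. Of 37 genes of TGF-beta and BMP signalling, Ltbp1, which stores latent TGF-beta in the matrix, rose from 29.7 ± 2.18 to 44.3 ± 1.58 CPM (0.0063), while Inhbb and Fstl3, an extracellular antagonist of activins, fell (8.11%, median 0.06). Fstl3 went from 4.78 ± 0.680 to 2.55 ± 0.352 CPM (0.0223). Of 25 semaphorins and receptors, Plxna4 rose from 2.98 ± 0.425 to 6.80 ± 0.872 CPM (0.00518) and Neo1 from 80.3 ± 2.47 to 107 ± 4.78 CPM (0.0116), whereas Sema4d fell from 29.7 ± 2.71 to 16.9 ± 3.66 CPM (0.0234), with 12% called and a median of 0.05. In the Wnt list of 30 genes Wnt7b rose from 29.4 ± 4.37 to 43.9 ± 3.25 CPM (0.028; 3.33%, median 0.00), and in the Hippo list of 20 genes the kinase Stk4 rose from 53.1 ± 1.32 to 67.4 ± 2.97 CPM (0.0303; 5.0%, median 0.00). The 15 Wnt ligands, receptors and inhibitors had 9 members at an unadjusted p under 0.05 and a median of 0.26. For the 15 Wnt signal transducers and targets these values were 2 and -0.01. Calls ended for Mib1 and Stk4 without any 1 library but KD6 replicate 1 (0.061 to 0.106 and 0.0756 to 0.14), and for Wnt7b without replicates 1 or 2 of either line (0.0789 to 0.103). They also ended for Sema4d without any 1 shScr library (0.0532 to 0.103), for Fstl3 without shScr replicates 1 or 2 or KD6 replicate 2 (0.0791 to 0.0925) and for Neo1 without replicate 2 of either line (0.0659 to 0.0687). Under quantile normalization Stk4 was at 0.0546.

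Stem cell markers held 3 risen genes of 12 with values (25.0%, median 0.06). Cd24a, a surface glycoprotein of mammary epithelium, was at 5.37, 4.81 and 3.83 CPM in shScr and at 10.7, 9.53 and 8.76 CPM in KD6 (adjusted p = 0.00635). Bmi1, a Polycomb protein, rose from 81.5 ± 5.57 to 113 ± 2.02 CPM (0.00844) and Abcg2, a drug efflux pump, from 79.1 ± 3.38 to 103 ± 4.13 CPM (0.0189). Abcg2 lost its call without any 1 library but KD6 replicate 3 (0.0549 to 0.0722). Cd24a was also the 1 called gene of the 8 epithelial ones (12.5%, median 0.00). Of 10 mesenchymal genes 0 were called by limma, with 1 at an unadjusted p under 0.05. Vim, vimentin, was at 1709, 1705 and 1776 CPM in shScr and at 1999.7, 1818 and 1864 CPM in KD6 (adjusted p = 0.502).

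Metabolic lists had medians between -0.04 and 0.16. Of 24 genes of fatty acid oxidation and storage, 2 rose and 1 fell (12.5%, median 0.16). Cpt1a, which admits long-chain fatty acids to mitochondria, was at 25.4, 24.0 and 26.3 CPM in shScr and at 43.1, 44.5 and 39.9 CPM in KD6 (1.68-fold, adjusted p = 0.00234). Pparg, a nuclear receptor of lipid storage, rose from 0.681 ± 0.317 to 1.97 ± 0.0715 CPM (0.0173), and Angptl4 fell. Pparg had values only through its level in KD6 and KD4, so nothing is read from its part in the count. Of 44 genes of glycolysis and hypoxia, Pdk1 rose from 34.4 ± 2.25 to 45.98 ± 2.03 CPM (0.0248) while Car12 fell from 30.1 ± 3.08 to 17.6 ± 2.75 CPM (0.0128) and P4ha2 fell (6.82%, median 0.00). Scd1 was the only call among 34 genes of cholesterol and lipid synthesis (2.94%, median 0.12). Of the 22 cholesterol genes in that list 0 were called, with 8 at an unadjusted p under 0.05 and a median of 0.14. Of 74 nuclear genes of oxidative phosphorylation 1 was called (1.35%), Uqcr10 (34.2 ± 3.51 to 48.1 ± 5.29 CPM, 0.0461). In this list 12 genes were at an unadjusted p under 0.05, beside 16.1% of all genes. A higher mean in KD6 was found for 64 of the 74, with a median log2 change of 0.10. These genes are not independent of each other, and that share over all genes was not computed. The 14 mitochondrially encoded genes had a median of -0.04 and 0 calls by limma, with 0 at an unadjusted p under 0.05. Calls ended for Pparg without shScr replicates 2 or 3 or KD6 replicate 2 (0.0587 to 0.0796), for Car12 without shScr replicate 2 (0.0613) and for Pdk1 without any 1 library but KD6 replicate 1 (0.055 to 0.108). They ended for Uqcr10 without any but KD6 replicate 3 (0.0627 to 0.142) and, with KD4 in the fit, at 0.0827.

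Stress and detoxification genes went in both directions. Of 32 genes of the p53 pathway, 3 fell and 1 rose (12.5%), with a median log2 change of -0.13. A lower mean in KD6 was found for 25 members, and that share over all genes was not computed. Perp was the risen member. Beside Fas, Plk2, a Polo-like kinase, fell from 141 ± 4.80 to 111 ± 2.63 CPM (adjusted p = 0.0216) and Eda2r, a TNF receptor family member, from 19.3 ± 2.36 to 12.5 ± 1.71 CPM (0.0353). Of 49 genes of glutathione metabolism and NRF2 targets, 4 rose and 1 fell (10.2%, median 0.01). The glutathione transferases Gstm1 (25.0 ± 4.26 to 40.8 ± 5.38 CPM, 0.0249) and Gstm7 (1.94 ± 0.378 to 4.19 ± 0.603 CPM, 0.0141) rose, and as members of a cluster of close copies they may share reads. Ephx1, an epoxide hydrolase, rose from 56.8 ± 7.68 to 90.6 ± 10.9 CPM (0.0171) and Cbr1, a carbonyl reductase, from 17.96 ± 0.227 to 27.1 ± 2.62 CPM (0.0101), while Akr1b3, aldose reductase, fell from 79.8 ± 5.34 to 52.9 ± 2.71 CPM (0.00518). Of 15 FOXO targets and quiescence genes, Depp1 and Sesn3 (24.1 ± 0.888 to 33.8 ± 2.93 CPM, 0.0208) rose and 0 fell (13.3%, median 0.07). Calls ended for Plk2 without any 1 library but KD6 replicate 1 (0.0511 to 0.117), for Eda2r without replicates 1 or 2 of shScr or 2 or 3 of KD6 (0.0773 to 0.142), for Gstm7 without shScr replicates 2 or 3 or KD6 replicate 2 (0.0587 to 0.0639) and for Sesn3 without those or KD6 replicate 3 (0.0528 to 0.0928). Those of Ephx1 (0.0549 to 0.0796) and Gstm1 (0.066 to 0.103) ended without shScr replicates 1 or 3 or KD6 replicates 1 or 2. Among the called list members, a fit without an intensity trend further ended the calls of P4ha2 (0.054), Plat (0.0639), Serpine2 (0.0711), Tgfa (0.0591), Ifnar1 (0.054), Psmb8 (0.0517), Mib1 (0.0525), Stk4 (0.0582), Uqcr10 (0.0686) and Plk2 (0.0525). A minimum mean of 5 CPM ended those of Serpine2 (0.0518) and Uqcr10 (0.0513).

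In 21 of the 46 lists limma called no gene. They included 67 splicing factors (4 at an unadjusted p under 0.05, median -0.01), 19 genes of the CCR4-NOT deadenylase and its partners (2, median -0.02), 42 genes of DNA replication (2, median 0.03), 40 of mitosis (2, median 0.07), 35 of ribosome biogenesis (3, median -0.10), 48 of the proteasome and chaperones (1, median -0.03), 23 histones (0, median 0.04), 26 of the tricarboxylic acid cycle (6, median 0.09), 30 of the integrated stress response (3, median -0.02), 26 of the unfolded protein response (3, median 0.03) and 7 of the retinoid response (0, median -0.09). Btg2, a CCR4-NOT partner that restrains proliferation, had the lowest p of its list, with 22.9 ± 1.27 CPM in shScr and 15.5 ± 3.21 CPM in KD6 (adjusted p = 0.0699). It was called under quantile normalization (0.0494) and without KD6 replicate 1 (0.0337). In these lists Hspb1, a small chaperone, was called without KD6 replicate 1 (0.0372), and without KD6 replicate 3 the translation repressor Eif4ebp1 (0.0324) and the Argonaute gene Ago4 (0.0482). Of the markers of other cell types, 1 of 9 fibroblast genes had values (Pdgfra, 2.54 to 3.55 CPM in shScr and 4.42 to 5.11 CPM in KD6, adjusted p = 0.084), 1 of 10 immune genes (Cd68, 32.3 to 38.7 and 30.3 to 49.7 CPM, 0.818), 1 of 8 endothelial genes (Egfl7, 10.4 to 12.7 and 9.97 to 11.4 CPM, 0.855), 1 of 9 myoepithelial genes (Mylk, 32.9 to 37.2 and 41.2 to 47.2 CPM, 0.0572) and 0 of 7 adipocyte genes. The other markers of these cell types had no values, and nothing is read from that.

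The third question was how KD6 stood to KD4, which is labelled as a knockdown of the same gene and has the lower Smarcd1. Tested directly in 1 fit of both lines and shScr, 671 genes differed between KD6 and KD4 (4.91% of 13669), of which 344 were higher and 327 lower in KD6. The count was 298 without KD6 replicate 2, 396 without KD6 replicate 3 and 405 without KD4 replicate 2. Of the 351 genes called against shScr, 104 also differed between the lines. In 91 of them KD6 differed from KD4 in the same direction as from shScr, whichever side of shScr KD4 was on. In the other 13 KD4 was further from shScr on the same side as KD6. The 351 were selected for a large difference of KD6 from shScr on these libraries, so nothing is read from that split. For the other 247 a difference between KD6 and KD4 was not called, which does not show that the lines were alike. Both lines are read against the same 3 shScr libraries, so their changes from shScr are not independent of each other.

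By the smallest p, the genes that differed most between the lines were Otud4, Emp2, Tgoln1, Cpeb4, Serpine2, Plekha3, Wnt9a, Dhdh, Mgat4a and Tmem14c. In 7 of them KD4 was called against shScr and KD6 was not. Otud4, a deubiquitinase, was at 319 ± 23.8 CPM in shScr, 270.5 ± 8.60 in KD6 and 109.8 ± 6.41 in KD4, and Tgoln1, a protein of the trans-Golgi network, at 315 ± 24.3, 277 ± 6.35 and 134 ± 11.3 CPM. Emp2, a tetraspan membrane protein, stood away in KD6. It was at 48.4, 48.1 and 47.3 CPM in shScr, at 106, 111 and 99.5 CPM in KD6 and at 43.1 ± 5.86 CPM in KD4 (KD6 minus KD4 1.28 ± 0.09 on the log2 scale, adjusted p = 0.000214). Plekha3, which takes part in Golgi export, was at 34.5 ± 2.74 CPM in shScr, 64.3 ± 7.98 in KD6 and 25.5 ± 2.78 in KD4, and Serpine2 at 38.2 ± 3.55, 50.9 ± 3.55 and 23.6 ± 1.37 CPM, so that for these genes the lines lay on opposite sides of shScr.

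Of the 30 genes with the largest rise or fall in KD6, 12 differed between the lines. Among them were Adora1 (KD6 minus KD4 2.63 ± 0.36 on the log2 scale, adjusted p = 0.00267), Mmp3 (1.31 ± 0.17, 0.00198), Lgals7 (1.26 ± 0.18, 0.00276), Cgn (-1.88 ± 0.21, 0.000874), Relb (-1.33 ± 0.14, 0.000701) and Inhbb (-1.27 ± 0.17, 0.00251). The level of Cgn was 13.8 ± 2.97 CPM in KD4 and that of Relb 8.94 ± 1.77 CPM, both above the shScr means of 9.47 and 7.21 CPM. For Mmp10, the neighbour of Mmp3, the difference between the lines was 0.16 ± 0.20 (adjusted p = 0.79), and whether the 2 genes differed in this was not tested. For Perp (-0.24 ± 0.09, 0.184), Il2rg (-0.31 ± 0.10, 0.114), Lgalsl (0.15 ± 0.24, 0.843) and Adamts8 (0.26 ± 0.13, 0.352) a difference between the hairpin lines was not called.

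The empty-vector line gives a second view of the control, from the transcript table summed per gene. It carried another vector and was selected with another drug, and its values were not tested here. EV was nearer to KD6 than to shScr, on the log2(CPM + 1) scale, for 242 of 336 called genes (72.0%), beside 59.2% of all 13142 genes. The called genes were chosen on the same KD6 and shScr libraries, so nothing is read from the difference between these shares. By direction it was 187 of 236 risen genes and 55 of 100 fallen genes. Perp was at 36.9 CPM in shScr, 86.7 in KD6 and 104.5 ± 5.66 in EV on these sums, and Adamts8 at 5.41, 1.501 and 1.28 ± 0.296 CPM. Lgalsl was nearer to shScr, at 3.34, 13.8 and 5.13 ± 0.635 CPM. Smarcd1 itself was at 15.3 CPM in shScr, 13.2 in KD6 and 29.4 ± 2.74 in EV on these sums.

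At the transcript level 21 of 30220 transcripts were called by limma (0.0695%), 16 risen and 5 fallen, of 21 genes, 20 of which were also called as genes. With any 1 library left out, and under a replicate block, 0 were called, while 2501 to 2877 had an unadjusted p under 0.05 with a library left out. The transcripts with the smallest p were those of Emp2, Lgalsl, Perp, St3gal3, Abcc3, Tnfrsf26, Ptgs2 and Il2rg. For Emp2 (ENSMUST00000078357), Lgalsl, Perp and Ptgs2 only 1 transcript had values, so that the transcript repeats the gene. Abcc3, an organic anion pump, had its transcript ENSMUST00000178136 at 16.1, 18.3 and 14.9 CPM in shScr and at 36.5, 34.6 and 36.9 CPM in KD6 (adjusted p = 0.0361).

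St3gal3, a sialyltransferase, was the gene of the 21 that was not called as a whole (gene log2 change 0.16, adjusted p = 0.552). Its transcript ENSMUST00000106410 was at 0.701, 0.744 and 0.650 CPM in shScr and at 4.73, 5.40 and 4.09 CPM in KD6 (log2 change 1.75 ± 0.14, adjusted p = 0.025). It made up 4.69%, 4.21% and 3.62% of the listed St3gal3 CPM in shScr and 28.0%, 27.1% and 23.6% in KD6. The share of the other listed transcript, ENSMUST00000030263, was 95.8% ± 0.537 in shScr and 73.8% ± 2.33 in KD6. In Rfng, which rose as a gene, ENSMUST00000026156 made up 33.3%, 30.3% and 52.8% of its CPM in shScr and 94.1%, 88.9% and 85.1% in KD6 (a share that did not pass the stricter of the tests below).

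A test of transcript share over 7077 genes with at least 2 transcripts (limma's diffSplice with Simes' method) called 51 genes (0.721%), 47 of which were not called in level. This test takes 1 spread for all transcripts of a gene, and on simulated data in which transcripts kept their own spread it called too many genes. A test with the own spread of each transcript, added after the data were seen, called 1 gene, St3gal3 (adjusted p = 0.0437). The genes with the smallest p in the first test were Cep170, St3gal3, Gas5, Fubp1, Abcc5 and Elp3. With the own spread, Cep170 was at an adjusted p of 0.679, Gas5 at 0.694, Fubp1 at 0.718, Abcc5 at 0.616 and Elp3 at 0.489. St3gal3 is therefore the only gene here for which a changed share passed both tests, and it passed the first without each library and under the block (0.00102 to 0.00684).

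**Figure D5:**
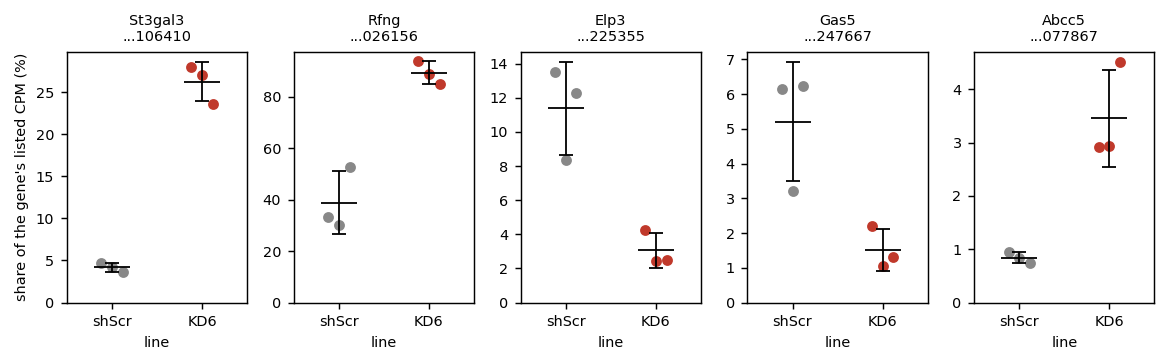
Share of 1 transcript in the summed listed CPM of its gene (percent, axes starting at 0) in shScr and KD6 for 5 genes, with the last 6 digits of the transcript identifier above; points are libraries, the long bar is the mean and the capped line 1 SD on each side (n = 3). The St3gal3 transcript has a mean share of 4.17% in shScr and 26.2% in KD6, and of these genes only St3gal3 passed the test with the own spread of each transcript.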

How the data were processed

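RNA-seq of 15 libraries (5 lines of 6DT1, 3 each) was deposited as tables of CPM, which the authors calculated from fractional read counts. The submitters' processing notes list STAR 2.7.8a and mm39. The published methods describe earlier software and an earlier mouse assembly. Which of them made the tables is not settled, so no coordinate was taken from the tables. Promoter windows and the order of neighbouring genes are from RefSeq (GRCm38.p6). Listed genes and transcripts reached a geometric mean of 1 CPM, with no exact zero among the genes. A gene under 1 CPM in shScr could thus be listed through its level in the other lines. Whole reads could not be recovered, so depth is unknown and no count model was run. Symbols matched 87.3% of 13669 gene identifiers. The transcript table has 15 further columns of samples that match no label here, which were not used, nor were the authors' statistics.

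Values were transformed to log2(CPM + 1) and fitted with limma 3.58.1 (R 4.3.3, intensity trend), KD6 against shScr on 6 libraries and KD6 against KD4 on 9, with adjusted p under 0.05 as threshold. Same-numbered KD6 and shScr libraries did not deviate together, so the fit reported has no block. Some pairs of libraries with different numbers did, as given below. A p value sets the difference between lines against the spread between passages within a line, pooled over the lines of the fit. Each hairpin is represented by 1 line, so variation between lines made with the same hairpin is not covered. The tests were tried on simulated data with known changes. Alternatives are given below.

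The comparison and the gene lists were chosen with earlier results of these data known. Named were Smarcd1, the called genes with the largest log2 change (15 in each direction) whose mean log2(CPM + 1) reached 2 and whose libraries did not overlap, the 5 called genes with the largest CPM difference in each direction, the called members of each list or otherwise up to 4 with the smallest p, the 10 genes most different between KD6 and KD4 by p, and, by p, the first 8 transcripts and the first 6 genes of the usage test. Predicted genes, pseudogenes and identifiers without a symbol were counted and not named. Other genes named were picked after their values were seen. Python 3.11.15 with matplotlib 3.10.9 drew the figures.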

Additional observations from a re-analysis of the deposited data

Results flagged for a closer look

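KD6 and KD4 are both labelled as knockdowns of Smarcd1, although a decrease of Smarcd1 was not detected in the libraries labelled KD6. The difference between the lines was tested directly in the 3-group limma fit. Of Smarcd1 and the 30 genes with the largest rise or fall in KD6, 13 differed between the lines at an adjusted p under 0.05. The log2 differences, KD6 minus KD4, were positive for Smarcd1 (0.60), Adora1 (2.63), Mmp3 (1.31), Lgals7 (1.26), Ephb2 (0.86), Ccnb1ip1 (0.79) and Fbln1 (0.61). They were negative for Cgn (-1.88), Relb (-1.33), Inhbb (-1.27), Angptl4 (-1.18), Naip2 (-1.02) and Sbsn (-0.61). For Ccnb1ip1 both lines were below shScr and KD4 was the lower one, at 1.01 ± 0.0747 CPM against 2.497 ± 0.453 CPM in KD6.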

How the results depend on the processing

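The count of 351 genes for KD6 against shScr was 353 with a pseudocount of 0.1 CPM, 342 with quantile normalization, 355 with scaling by the median of ratios, 242 at a minimum mean of 5 CPM, 398 in the fit with KD4 and 324 without an intensity trend. Leaving out 1 library gave 155 to 330. Replicate numbers are shared by the lines, but same-numbered KD6 and shScr libraries deviated with r = -0.314, -0.280 and -0.328, so the numbers do not pair them. Libraries with different numbers gave r = 0.393 (shScr 1 with KD6 3), 0.318 (shScr 2 with KD6 1) and 0.312 (shScr 3 with KD6 2). The remaining pairs lay between -0.104 and 0.0478. Whether the positive pairs share a source of variation was not tested, and no fit with them as a block was run. With the number as a block the count was 179 against shScr, 349 against KD4, 0 for transcripts (1748 at an unadjusted p under 0.05) and 11 for usage. For KD6 against KD4 (671) the 6 libraries alone gave 440 and leaving out a library 298 to 539. Transcripts (21) gave 0 with any library left out. Usage (51) gave 31 with an F test, 28 to 59 with a library left out, and 1 with the own spread of each transcript. The log2 change of Smarcd1 stayed between -0.13 and -0.03 and was not called under any of its 13 alternatives. No named gene changed sign with a call. Of 95 named called genes, 53 kept the call without each library. The cause of these differences was not tested. With 2 against 3 libraries the test has fewer samples, and without read counts the part of counting error in low levels cannot be given.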

Other observations

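Of the 10540 pairs of listed genes that are next to each other in the RefSeq gene order, both members were called in 18 pairs, 12 of them in the same direction. They include Rassf4 and Depp1 (log2 changes 1.04 and 1.74), Add2 and Tgfa (1.13 and 0.38), Podxl and Plxna4 (0.43 and 0.97), Cdk18 and Nuak2 (-0.60 and -0.63) and Mmp3 and Mmp10 (1.36 and 1.29). Opposite pairs include Il18rap and Slc9a2 (-0.79 and 0.76). These are counts with no test, and the pairs were named after their values were seen.

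Some of the largest log2 changes were not called, and the libraries of a line lay far apart for these genes. Snord15b was at 9.62, 169 and 5.83 CPM in shScr and 0.588, 0.0197 and 9.25 CPM in KD6 (log2 change -3.18, adjusted p = 0.218). Myo18b, a myosin, was at 0.491, 0.00232 and 0.00847 CPM in shScr and at 1.44, 5.68 and 17.0 CPM in KD6 (2.54, adjusted p = 0.0554), and at 3.45, 5.11 and 46.5 CPM in KD4. Acpp was at 25.6, 2.99 and 2.21 CPM in shScr, 0.0332, 0.931 and 1.16 CPM in KD6 and 129, 9.54 and 15.8 CPM in KD4 (KD6 minus shScr -2.10, adjusted p = 0.161). Its difference between KD6 and KD4, -4.13, was called (adjusted p = 0.0296). These genes were named after their values were seen.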
